A study of Rattus norvegicus with 9 samples.

Results

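The respiratory chain and ATP synthase are described here in demyelinated rat white matter at 5, 14 and 28 days post lesion (dpl), through the genes that the array annotation names by the symbols of the 5 complexes. Members were chosen by a rule on symbols that uses no measured value, but it was set with earlier results of these data known. It takes every probe of the authors' normalized table with a matching platform symbol. Matching symbols start with Nduf, with Sdh followed by a, b, c or d, with Uqcr, with Cox and a digit or with Atp5. The symbols Cyc1 and Cycs also match. The rule found 72 of the 7574 named genes, each with 1 probe. Complex I has 35 of them, complex II 6, complex III together with cytochrome c 5, complex IV 13 and complex V, the ATP synthase, 13. By role, 59 are subunits or cytochrome c and 13 are assembly factors, which build a complex without staying in it. All of them are nuclear genes; the subunits encoded by mitochondrial DNA carry other symbols and are not analysed here. Ndufs6-ps1 is a pseudogene in RefSeq, and the probes named Ndufa10 and Ndufa10l1 stand for near-identical genes whose signals may not be separable, so the values of these probes are uncertain.

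There were 3 arrays at each time point. All 9 came from Sprague Dawley rats that were 12 weeks old at lesioning. Their caudal cerebellar peduncle, white matter that enters the cerebellum, had been stripped of myelin with 0.1% ethidium bromide, a toxin to local glia after which such lesions remyelinate, and the lesion was cut out of frozen brain by laser capture. Every group carries the lesion, with no unlesioned tissue among the 9 arrays, so each comparison sets a later lesion against an earlier one. The series' design text calls the 3 arrays of each day biological replicates. Nothing in the sources used here says whether an array stands for 1 animal or for pooled animals, so p-values cover only the spread among these arrays.

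The respiratory chain passes electrons from NADH (complex I) and succinate (complex II) through ubiquinone, complex III and cytochrome c to oxygen at complex IV. The protons pumped on the way drive ATP synthesis by complex V. Each complex except complex II joins proteins of both genomes, and its assembly needs dedicated factors and iron-sulfur, heme or copper cofactors. In white matter, axons use much of this ATP for ion pumping, and myelinating oligodendrocytes and activated phagocytes are known to lean on glycolysis to varying extents.

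Many nuclear genes of the chain carry binding motifs for the factors NRF1, GABP (an ETS family factor), YY1 and the estrogen-related receptors, which are known regulators of mitochondrial genes. The promoters of the 4 subunits of complex II are shown because all 4 were measured, the complex is encoded by the nucleus alone, and its members went opposite ways in these lesions, with Sdhb lower and Sdhc higher at 28 than at 5 dpl. The sequences are RefSeq's for build GRCr8, 250 bases before to 50 after the annotated start, at chr1:30764303-30764602 on the plus strand (Sdha), chr5:158547684-158547983 on the plus strand (Sdhb), chr13:86097976-86098275 on the minus strand (Sdhc) and chr8:59850592-59850891 on the minus strand (Sdhd). Capitals mark matches to TGCGCA (NRF1, the same on both strands), CCGGAAG (ETS), AAGATGG (YY1) or AAGGTCA (estrogen-related receptors), searched on both strands, so that CTTCCGG and TGACCTT are minus-strand matches.
Sdha: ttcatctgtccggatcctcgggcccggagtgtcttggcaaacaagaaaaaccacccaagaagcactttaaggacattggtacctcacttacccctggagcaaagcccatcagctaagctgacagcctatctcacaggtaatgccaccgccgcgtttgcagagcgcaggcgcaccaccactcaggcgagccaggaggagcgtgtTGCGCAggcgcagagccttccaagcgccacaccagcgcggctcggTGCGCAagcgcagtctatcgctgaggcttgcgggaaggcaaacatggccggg
Sdhb: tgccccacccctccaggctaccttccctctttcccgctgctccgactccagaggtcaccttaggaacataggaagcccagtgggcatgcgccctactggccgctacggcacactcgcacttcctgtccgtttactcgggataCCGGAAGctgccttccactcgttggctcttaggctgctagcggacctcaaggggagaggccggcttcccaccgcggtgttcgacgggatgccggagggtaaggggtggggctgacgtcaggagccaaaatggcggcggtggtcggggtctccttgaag
Sdhc: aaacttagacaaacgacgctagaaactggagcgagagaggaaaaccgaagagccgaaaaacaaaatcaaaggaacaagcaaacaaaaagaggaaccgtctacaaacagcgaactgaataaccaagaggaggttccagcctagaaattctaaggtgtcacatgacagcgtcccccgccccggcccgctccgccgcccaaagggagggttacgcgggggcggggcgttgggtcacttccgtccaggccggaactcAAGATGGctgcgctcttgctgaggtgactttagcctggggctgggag
Sdhd: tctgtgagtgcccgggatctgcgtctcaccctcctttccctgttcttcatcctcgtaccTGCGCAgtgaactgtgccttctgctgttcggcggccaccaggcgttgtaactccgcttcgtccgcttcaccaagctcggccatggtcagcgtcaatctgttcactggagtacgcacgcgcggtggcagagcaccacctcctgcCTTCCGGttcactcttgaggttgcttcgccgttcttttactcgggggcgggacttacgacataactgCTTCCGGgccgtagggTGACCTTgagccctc
Sdha held 2 NRF1 matches, Sdhb 1 ETS match, Sdhc 1 YY1 match and Sdhd 4 matches, of which 2 were ETS. The subunit that was lower and the subunit that was higher therefore each held 1 match, to different motifs. Only exact letters were searched, so an unmarked promoter may still hold a variant of a motif. For example, Sdha holds aacatgg and Sdhb aaaatgg, each of which differs from AAGATGG in 1 letter and is not marked. Such near matches were not searched for or listed in full.

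Promoters were found for 63 of the 72 members. TGCGCA was in 30.2% of them, against 13.9% of the promoters of 6271 protein-coding genes measured on the array and 9.17% of 18999 protein-coding promoters in all. The ETS motif was in 33.3%, against 17.9% and 11.2%, and the YY1 motif in 14.3%, against 8.28% and 7.58%. AAGGTCA was in 12.7% of member promoters, against 2.81% of the promoters of measured genes and 3.71% of all. At least 1 of the 4 motifs was in 61.9% of member promoters, against 36.1% and 27.5%. All 4 motifs were thus more frequent in the members' promoters than in either wider set. These are counts of letters in sets not matched for base composition, and no test was made. Among members, TGCGCA was in 1 of 13 promoters of genes lower at 28 than at 5 dpl, in 1 of 4 of genes higher, and in 17 of 46 of genes past the threshold in neither direction. For the ETS motif the same counts were 6 of 13, 1 of 4 and 14 of 46. They were 0 of 13, 1 of 4 and 8 of 46 for the YY1 motif, and 2 of 13, 0 of 4 and 6 of 46 for AAGGTCA. Whether any motif goes with the direction of change was not tested.

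Values are the authors' quantile-normalized log2 intensities. Differences carry the standard error (SE) of a limma fit over all 10552 probes, with n = 3 arrays at each time. Adjusted p-values come from limma with Benjamini-Hochberg adjustment over all probes, and the threshold was 0.05. "Rose" and "fell" are used for differences past it. On all 9 arrays 70 of the 72 members exceeded a background estimated at 7.31. The exceptions were Cox20, above it on 5 arrays, and Atp5mc3, above it on 4.

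Across the lesion's course the chain changed little and in both directions. From 5 to 28 dpl, 15 members fell and 6 rose, in all 29.2% of the 72, while 44.3% of all probes passed the same test (24.1% lower, 20.2% higher). From 5 to 14 dpl 6 members fell and 0 rose, 8.33% against 20.8% of all probes (10.1% lower, 10.7% higher). From 14 to 28 dpl 1 member fell and 0 rose, 1.39% against 15% of all probes (7.48% lower, 7.49% higher). The moderated F test for any difference among the time points called 18 members, 25% against 41.4% of all probes. The members thus passed each test less often than the array as a whole; the difference between these shares was not itself tested. At an unadjusted p under 0.05, 4 members were higher and 14 lower at 14 than at 5 dpl, where 16.3% of all probes were higher and 16.9% lower, and 1 was higher and 7 lower at 28 than at 14 dpl, where 14.4% of all probes were higher and 15.9% lower.

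The differences were also small in size. No member differed by more than 0.5 between 28 and 5 dpl, where 2273 of the 10552 probes (21.5%) did, and the largest member difference was 0.49 against 5.32 over all probes. The median size was 0.14 for members and 0.21 for all probes, and the median SE was 0.09 for members and 0.08 for all probes. Since most members give bright probes, the same values were taken, after the data had been seen, over probes with a mean of at least 10: there, 14 of 52 members (26.9%) and 55.3% of 2447 probes passed the threshold (31.1% lower, 24.2% higher), with median sizes of 0.14 and 0.31. The median signed difference was -0.07 over members and -0.03 over all probes, but the members' value depended on single arrays and on scaling: leaving out 5 dpl replicate 3 gave -0.13, leaving out 28 dpl replicate 1 gave -0.03, and cyclic loess gave -0.02 and put the median of all probes at -0.007. For 48 of the 72 members the means of the 3 time points lay within 0.25 of each other, and 1 member, Cox17, exceeded 0.5 in any pairwise comparison.

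**Figure D1:**
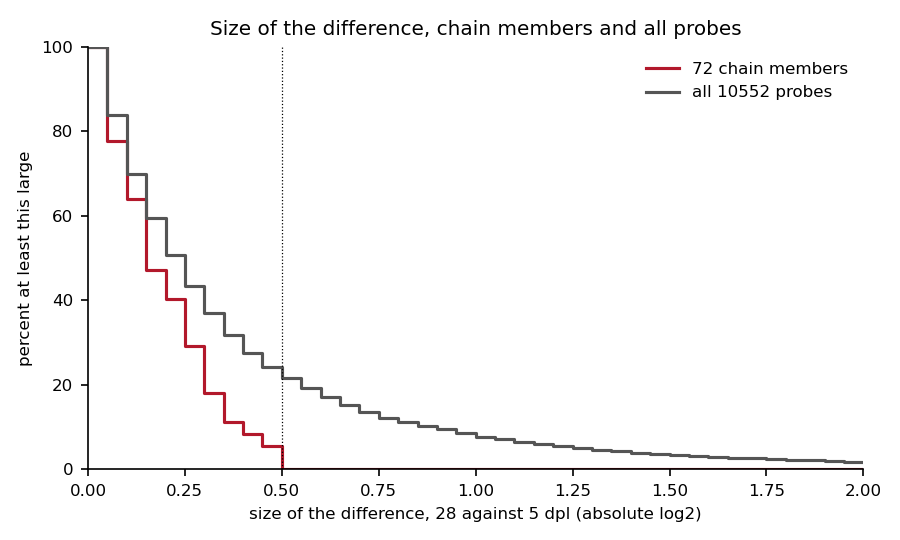
Percent of the 72 chain members (red) and of all 10552 probes (grey) whose difference between 28 and 5 dpl is at least the size on the horizontal axis (absolute log2, in steps of 0.05, axis ended at 2). The members end below the dotted line at 0.5, while 21.5% of all probes lie above it.

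The lesion itself changed strongly over the same days, and these values stand beside every member result below. Relative to 5 dpl, all 15 measured myelin and oligodendrocyte markers rose by 28 dpl, 6 of 9 astrocyte and 5 of 6 Schwann cell markers rose, 12 of 16 microglia and macrophage markers fell, all 13 cell cycle genes fell, and 0 of 16 neuron markers passed the threshold in either direction, where 10 rose without 5 dpl replicate 1. Over all probes 20.2% rose and 24.1% fell. The mean level of the myelin list, in log2 relative to its mean over all arrays, ranged at 5 dpl between -1.62 and -1.09, at 14 dpl between -0.11 and 0.24, and at 28 dpl between 1.21 and 1.41; the microglia and macrophage list was at 0.38 to 0.45, 0.06 to 0.27 and -0.72 to -0.38. The same mean over the 72 chain members was -0.06 to 0.14, -0.02 to -0.01 and -0.10 to 0.04, so the 3 time points overlapped. The part of these shifts in the members' differences was not tested, and in bulk tissue fewer cells of a type and less RNA per cell cannot be told apart. The array of 5 dpl replicate 1 stood apart from its group. Its score on principal component 1, which held 70.1% of the variance, was -23.74, while the other two 5 dpl arrays scored -37.70, with a neuron list level of 1.34 against -0.52 and -0.22. Without it, 6 members rose and 15 fell between 5 and 28 dpl, 18 of the 21 original calls among them.

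**Figure D2:**
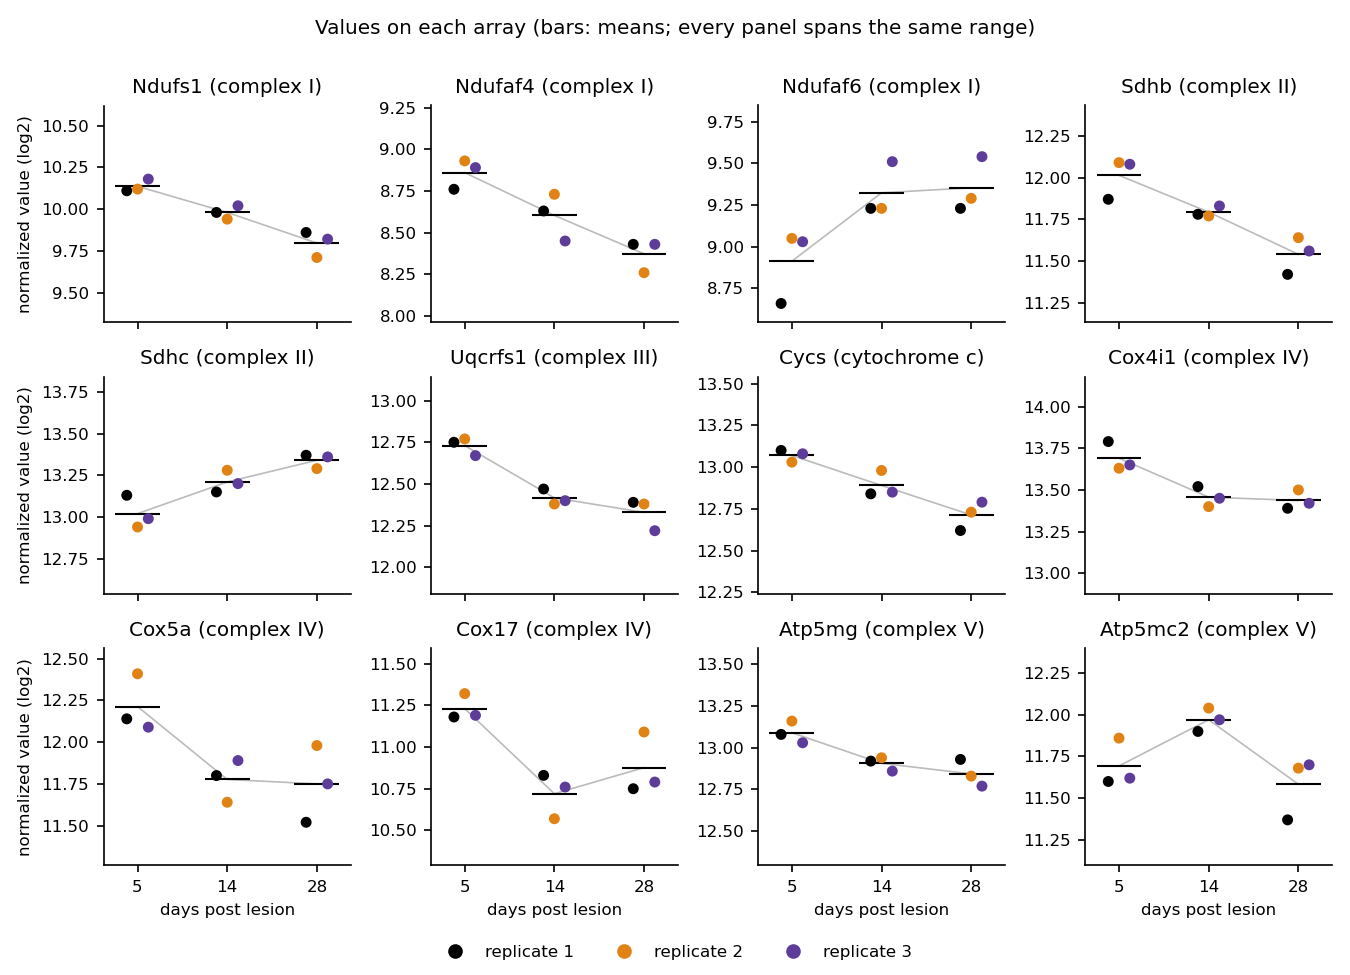
Log2 level on each of the 9 arrays for members the text describes in each complex, 1 panel per gene, with the time points 5, 14 and 28 dpl on the horizontal axis. Points are single arrays, coloured by replicate, bars the mean of 3, and every panel spans the same range; Sdhb and Cycs have lower means at each later time point, Sdhc higher ones, and Uqcrfs1 and Cox17 are already low at 14 dpl.

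Complex II gave opposite changes within 1 enzyme. Sdhb, the iron-sulfur subunit that carries electrons away from the flavin, stood at 11.87, 12.09 and 12.08 at 5 dpl, 11.78, 11.77 and 11.83 at 14 dpl and 11.42, 11.64 and 11.56 at 28 dpl. No array of one time point overlapped another, and the mean was lower at each later time point. Sdhb fell by 0.47 (SE 0.08, 1.39-fold) between 5 and 28 dpl (limma adjusted p = 0.00151); the steps of -0.22 to 14 dpl and -0.25 after it had adjusted p = 0.085 and 0.063. Sdhc, a membrane anchor that helps bind ubiquinone and heme, stood at 13.13, 12.94 and 12.99 at 5 dpl, 13.15, 13.28 and 13.20 at 14 dpl and 13.37, 13.29 and 13.36 at 28 dpl. Here the order was the reverse, again with no overlap between time points. Sdhc rose by 0.32 (SE 0.07, 1.25-fold) between 5 and 28 dpl (limma adjusted p = 0.00421). The other two subunits did not pass the threshold: Sdha, the flavoprotein that oxidizes succinate, differed by -0.16 between 28 and 5 dpl (95% interval -0.35 to 0.03), and Sdhd, the second anchor, by -0.13 (95% interval -0.28 to 0.03). Of the assembly factors, Sdhaf2, which attaches the flavin to Sdha, rose by 0.27 (SE 0.08, limma adjusted p = 0.0231). Its call was lost without 28 dpl replicate 1 or 3 (adjusted p up to 0.0744). Fitting the compared time points alone also ended it (limma adjusted p = 0.0502). Sdhaf3, which acts on the iron-sulfur subunit, differed by 0.14 (95% interval -0.14 to 0.42). Without 5 dpl replicate 1, Sdhb and Sdhc also passed between 14 and 5 dpl, at -0.29 and 0.25, and Sdhb between 28 and 14 dpl at -0.25 (limma adjusted p = 0.0283). Sdhd differed by -0.19 between 14 and 5 dpl (limma adjusted p = 0.0802), and passed there without 28 dpl replicate 2 (limma adjusted p = 0.0338). With array weights Sdhb, Sdhc and Sdhd passed between 14 and 5 dpl, at -0.25, 0.22 and -0.21. The same weights made Sdhb and Sdhaf2 pass between 28 and 14 dpl, at -0.29 and 0.21.

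Complex I, the largest complex, was split about evenly. Of its 35 members 4 rose (11.4%, against 20.2% of all probes) and 6 fell (17.1%, against 24.1%) between 5 and 28 dpl. The median difference was 0, with 17 differences positive and 18 negative. Between 5 and 14 dpl 0 members rose (against 10.7% of all probes) and 2 fell (5.71%, against 10.1%). Among the 6 measured core subunits, Ndufs1, the largest iron-sulfur subunit of the matrix arm, stood at 10.11, 10.12 and 10.18 at 5 dpl, 9.98, 9.94 and 10.02 at 14 dpl and 9.86, 9.71 and 9.82 at 28 dpl. The 3 time points did not overlap. Ndufs1 fell by 0.34 (SE 0.06, 1.26-fold) between 5 and 28 dpl (limma adjusted p = 0.00165). Ndufv2, an iron-sulfur subunit of the NADH-oxidizing arm, stood at 12.32, 12.14 and 12.13 at 5 dpl, 12.24, 12.24 and 12.38 at 14 dpl and 12.52, 12.36 and 12.50 at 28 dpl. It rose by 0.26 (SE 0.08, limma adjusted p = 0.0218), a call that was lost when any of 4 single arrays was left out: 5 dpl replicate 2 or 3, or 28 dpl replicate 1 or 3 (adjusted p up to 0.0742). The other four core subunits, Ndufv1, Ndufs3, Ndufs7 and Ndufs8, did not pass, with differences of -0.23 to 0.12. Without 5 dpl replicate 3, Ndufs3 passed at -0.27 and Ndufs8 at -0.28, and Ndufs8 also without 28 dpl replicate 3 at -0.30.

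The 22 accessory subunits of complex I, which surround the core, were mostly flat: 1 rose, 2 fell and their median difference between 28 and 5 dpl was 0.01. Their shares were 4.55% higher and 9.09% lower, against 20.2% and 24.1% of all probes. Ndufa8, imported into the intermembrane space with disulfide bonds, stood at 10.29, 10.34 and 10.19 at 5 dpl, 9.88, 10 and 9.98 at 14 dpl and 9.91, 10.03 and 9.99 at 28 dpl. Its drop lay between the first time points, and the levels at 14 and 28 dpl overlapped. Ndufa8 fell by 0.32 (SE 0.06, limma adjusted p = 0.00837) between 5 and 14 dpl and by 0.30 (SE 0.06, limma adjusted p = 0.00516) between 5 and 28 dpl. Ndufab1, the mitochondrial acyl carrier protein, which also serves fatty acid and lipoic acid synthesis, fell by 0.33 (SE 0.12), but its adjusted p of 0.0486 was the closest of the calls to the threshold, its arrays at 28 and 5 dpl overlapped, and leaving out any of 7 arrays ended the call (adjusted p up to 0.158). Cyclic loess, an intensity trend, array weights, a replicate block and the compared time points alone also ended it (limma adjusted p up to 0.0918). Ndufa10l1 stood at 12.08, 11.86 and 11.89 at 5 dpl, 12.12, 12.07 and 12.06 at 14 dpl and 12.14, 12.29 and 12.33 at 28 dpl. It rose by 0.31 (SE 0.08, limma adjusted p = 0.00986). Its near copy Ndufa10 differed by 0.24 (SE 0.09, adjusted p = 0.0568), and passed at 0.27 to 0.33 under 4 alternatives (limma adjusted p up to 0.044): array weights, cyclic loess, and the fits that leave out 5 dpl replicate 1 or 28 dpl replicate 3. Ndufb8, with the largest p of the complex, differed by -0.03 between 28 and 5 dpl (95% interval -0.44 to 0.38), and at 5 dpl its replicate 2 stood at 10.14 against 9.45 and 9.41.

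The assembly factors held a large share of the calls. Of 13 factors 8 passed between 28 and 5 dpl, 3 higher and 5 lower, or 61.5%, while of 59 subunits and cytochrome c 13 passed, 3 higher and 10 lower, or 22%. For all probes the share was 44.3%. The median size of the difference was 0.27 for the factors and 0.13 for the subunits, and whether these differ was not tested. Among the 7 complex I factors, Ndufaf4 stood at 8.76, 8.93 and 8.89 at 5 dpl, 8.63, 8.73 and 8.45 at 14 dpl and 8.43, 8.26 and 8.43 at 28 dpl. It fell by 0.49 (SE 0.09, 1.40-fold, limma adjusted p = 0.00209), the largest member difference between 28 and 5 dpl. Ndufaf1, a factor for the membrane arm, stood at 8.43, 8.75 and 8.57 at 5 dpl, 8.56, 8.40 and 8.16 at 14 dpl and 8.20, 8.10 and 8.06 at 28 dpl. It fell by 0.46 (SE 0.11, 1.38-fold, limma adjusted p = 0.00993), with 28 dpl below 5 dpl on every array and 14 dpl reaching into both. Ndufaf6 went the other way, at 8.66, 9.05 and 9.03 at 5 dpl, 9.23, 9.23 and 9.51 at 14 dpl and 9.23, 9.29 and 9.54 at 28 dpl. Its arrays at 14 and 28 dpl all lay above those at 5 dpl. Ndufaf6 rose by 0.44 (SE 0.13, 1.36-fold, limma adjusted p = 0.0245) by 28 dpl, which was lost without 5 dpl replicate 1 or 28 dpl replicate 3 (adjusted p up to 0.0855). Ndufaf7, a methyltransferase acting on a core subunit, fell by 0.28 (SE 0.06) at 14 dpl and 0.29 (SE 0.06) at 28 dpl, both against 5 dpl (limma adjusted p = 0.0116 and 0.00447). The call at 14 dpl was lost without 14 dpl replicate 2 or 3 (adjusted p = 0.0512 and 0.0508). Ndufaf2 rose by 0.23 (SE 0.08, limma adjusted p = 0.0396), a call lost without any of 6 arrays (adjusted p up to 0.127). An intensity trend, a replicate block and the compared time points alone also ended this call (limma adjusted p up to 0.0785). Ndufaf3 and Ndufaf5 differed by 0.09 and -0.03.

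**Figure D3:**
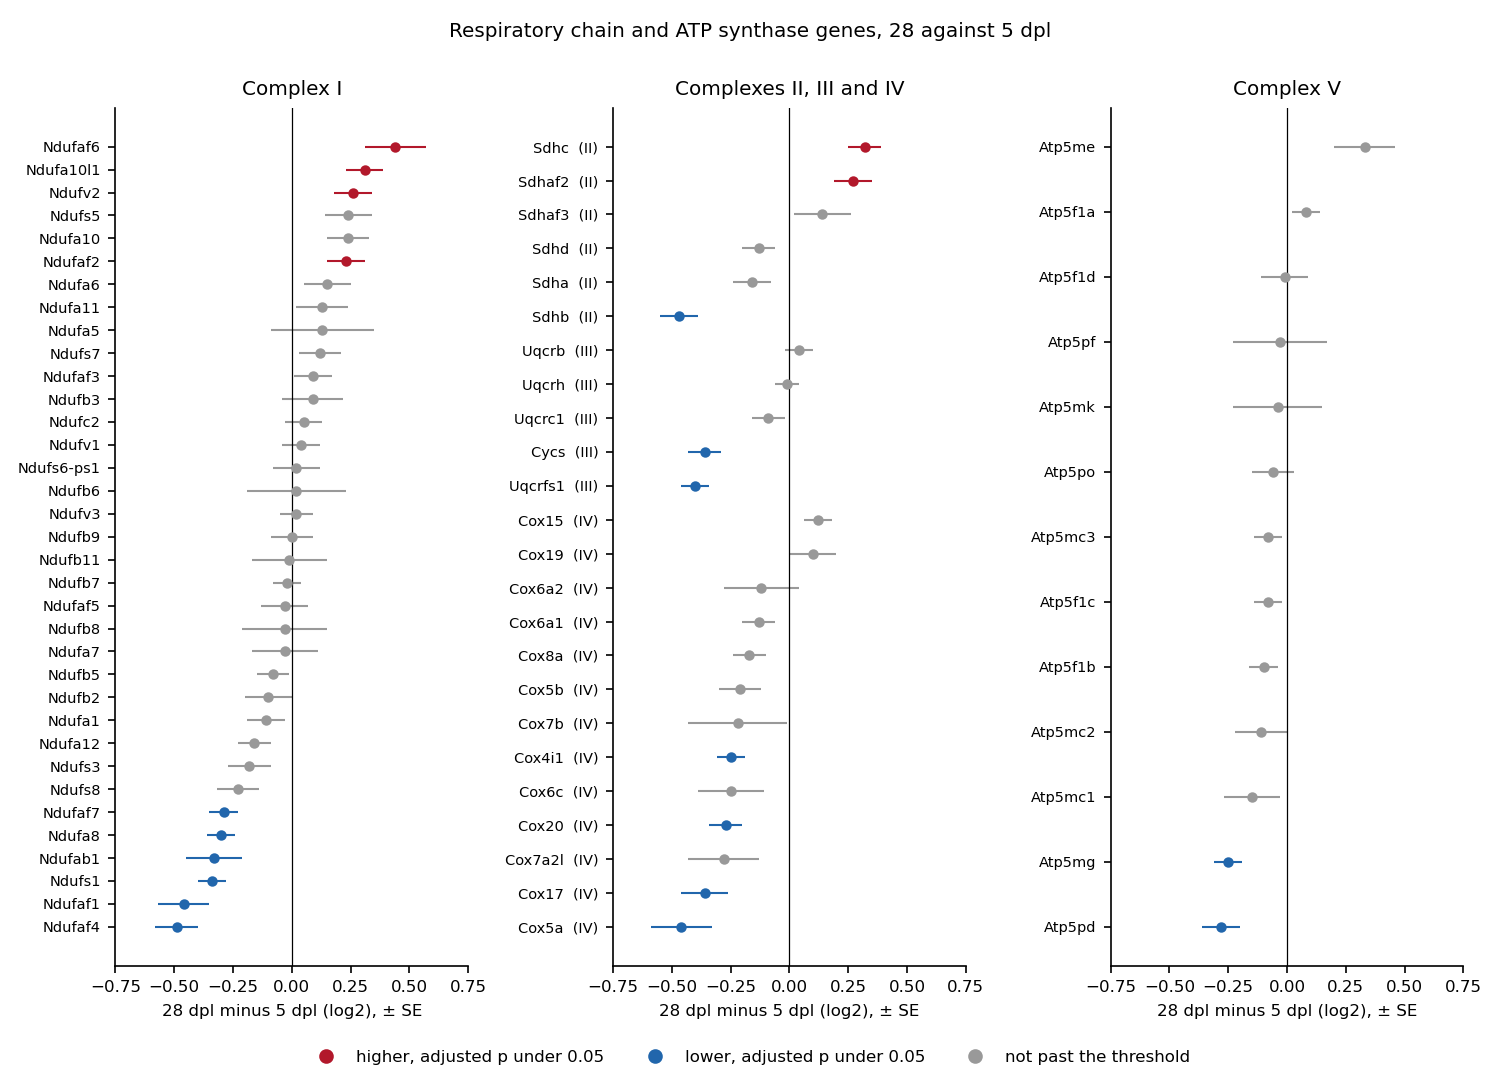
Log2 difference between 28 and 5 dpl for each of the 72 members, grouped by complex, with horizontal bars of 1 SE of the limma fit on each side; red (higher) and blue (lower) mark members with an adjusted p under 0.05, grey the others. The 15 lower members are spread over all 5 complexes, and the 6 higher ones lie in complexes I and II.

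In complex III and cytochrome c, 2 of 5 members fell and 0 rose between 5 and 28 dpl. That is 40% lower, where 24.1% of all probes were lower and 20.2% higher. Uqcrfs1, the Rieske iron-sulfur protein that passes electrons from ubiquinol toward cytochrome c, stood at 12.75, 12.77 and 12.67 at 5 dpl, 12.47, 12.38 and 12.40 at 14 dpl and 12.39, 12.38 and 12.22 at 28 dpl. All later arrays were below all 5 dpl arrays, with 14 and 28 dpl overlapping. Uqcrfs1 fell by 0.31 (SE 0.06, limma adjusted p = 0.00923) by 14 dpl and by 0.40 (SE 0.06, 1.32-fold, limma adjusted p = 0.00117) by 28 dpl. Cycs, cytochrome c, the soluble carrier that also activates caspases once released, stood at 13.10, 13.03 and 13.08 at 5 dpl, 12.84, 12.98 and 12.85 at 14 dpl and 12.62, 12.73 and 12.79 at 28 dpl. The 3 time points were in order without overlap. Cycs fell by 0.36 (SE 0.07, 1.28-fold, limma adjusted p = 0.00258) between 5 and 28 dpl. Uqcrc1, Uqcrb and Uqcrh, a core protein and 2 small subunits, differed by -0.09, 0.04 and -0.01, and for Uqcrh, the hinge protein, the 95% interval was -0.13 to 0.11.

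In complex IV, cytochrome c oxidase, 4 of 13 members fell between 5 and 28 dpl (30.8%, against 24.1% of all probes). None rose, against 20.2% of all probes. Of the 13 differences 11 were below 0, with a median of -0.22. The mean level of the 13 members, relative to all arrays, was 0.11, 0.25 and 0.01 at 5 dpl. It was -0.18, -0.01 and -0.02 at 28 dpl, so 5 dpl replicate 3 lay near 28 dpl replicates 2 and 3. Cox5a, a nuclear subunit of the matrix face, stood at 12.14, 12.41 and 12.09 at 5 dpl, 11.80, 11.64 and 11.89 at 14 dpl and 11.52, 11.98 and 11.75 at 28 dpl. It fell by 0.44 (SE 0.13, limma adjusted p = 0.0464) by 14 dpl and 0.46 (SE 0.13, 1.38-fold, limma adjusted p = 0.0192) by 28 dpl. The first call was lost without any of 7 arrays (adjusted p up to 0.156) and the second without 5 dpl replicate 2 or 28 dpl replicate 1 or 3 (up to 0.0668). A replicate block also ended the first call (limma adjusted p = 0.0686). Cox4i1, the ubiquitous isoform of subunit 4 that binds ATP, stood at 13.79, 13.63 and 13.65 at 5 dpl, 13.52, 13.40 and 13.45 at 14 dpl and 13.39, 13.50 and 13.42 at 28 dpl. It fell by 0.23 (SE 0.06, limma adjusted p = 0.0329) by 14 dpl and by 0.25 (SE 0.06, limma adjusted p = 0.0115) by 28 dpl. The 14 dpl call was lost without any of 4 arrays (up to 0.12). A replicate block and the compared time points alone also ended that call (limma adjusted p up to 0.0674). Cox17, the copper chaperone that supplies the enzyme's copper centres, stood at 11.18, 11.32 and 11.19 at 5 dpl, 10.83, 10.57 and 10.76 at 14 dpl and 10.75, 11.09 and 10.79 at 28 dpl. The 5 dpl arrays were highest, and 1 array at 28 dpl came near them. Cox17 fell by 0.52 (SE 0.10, 1.43-fold, limma adjusted p = 0.00918) by 14 dpl and by 0.36 (SE 0.10, limma adjusted p = 0.0223) by 28 dpl; the 28 dpl call was lost without 5 dpl replicate 2 or 28 dpl replicate 1 or 3 (up to 0.0792).

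Cox20, a chaperone of subunit 2, stood at 7.49, 7.59 and 7.37 at 5 dpl and at 7.23, 7.22 and 7.18 at 28 dpl, where all 3 arrays were below the estimated background. Cox20 fell by 0.27 between 5 and 28 dpl (95% interval -0.43 to -0.11, limma adjusted p = 0.0126, means of 7.48 and 7.21). With 28 dpl set at the estimated background of 7.31, the means were at least 1.13-fold apart. That bound does not cover the spread among arrays or the error of the background estimate. Of the tissue isoforms, the ubiquitous Cox6a1 and Cox8a differed by -0.13 (95% interval -0.29 to 0.03) and -0.17 (95% interval -0.34 to 0.00). Cox6a1 passed without 5 dpl replicate 3 at -0.21 (limma adjusted p = 0.0285), and Cox8a without 28 dpl replicate 1 at -0.24 (limma adjusted p = 0.037). Cox6a2, the heart and muscle isoform of subunit 6a, differed by -0.12 with a wide interval of -0.47 to 0.24. Cox7a2l, which joins complexes III and IV, differed by -0.28 (95% interval -0.62 to 0.07), and passed without 5 dpl replicate 1 at -0.41 (limma adjusted p = 0.0431). The copper and heme factors Cox19 and Cox15 were the 2 members of complex IV with positive differences, 0.10 and 0.12, neither past the threshold.

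In complex V, 2 of 13 members fell and 0 rose between 5 and 28 dpl. That is 15.4% lower, where 24.1% of all probes were lower and 20.2% higher. Both belong to the membrane and stalk part, and whether this part differs from the F1 head was not tested. Atp5mg, subunit g, stood at 13.08, 13.16 and 13.03 at 5 dpl, 12.92, 12.94 and 12.86 at 14 dpl and 12.93, 12.83 and 12.77 at 28 dpl, and fell by 0.25 (SE 0.06, limma adjusted p = 0.0108). Atp5pd, subunit d of the stalk, fell by 0.28 (SE 0.08, limma adjusted p = 0.0167), a call lost without 28 dpl replicate 1 or 3 (up to 0.0611). Atp5me, subunit e, had the largest difference of the complex, 0.33 (95% interval 0.03 to 0.62), but did not pass (limma adjusted p = 0.0708). Atp5me passed at 0.38 when arrays were weighted (limma adjusted p = 0.0473) or scaled by cyclic loess (limma adjusted p = 0.0377). Leaving out replicate 2 of 5 dpl gave 0.43 (limma adjusted p = 0.0361). The 4 measured subunits of the catalytic F1 head did not pass: Atp5f1a and Atp5f1b, the alpha and beta subunits, differed by 0.08 (95% interval -0.05 to 0.21) and -0.10 (95% interval -0.24 to 0.04). Atp5mc2, one of 3 genes for the same c-ring protein, was the member that fell between 14 and 28 dpl. It stood at 11.60, 11.86 and 11.62 at 5 dpl, 11.90, 12.04 and 11.97 at 14 dpl and 11.37, 11.68 and 11.70 at 28 dpl, so that the 14 dpl arrays were above all others. Atp5mc2 fell by 0.39 (SE 0.11, 1.31-fold, limma adjusted p = 0.0412) between 14 and 28 dpl, a call lost without any of 7 arrays (up to 0.115). Cyclic loess also ended this call (limma adjusted p = 0.0641). The other c-ring genes, Atp5mc1 and Atp5mc3, differed by -0.15 and -0.08 between 28 and 5 dpl. No member passed for 14 dpl against the mean of 5 and 28 dpl by limma, against 3.93% of all probes (2.24% higher, 1.7% lower); at an unadjusted p under 0.05, 1 member was higher and 4 lower, where 9.96% of all probes were higher and 9.08% lower.

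The 6 members that fell by 14 dpl, Ndufa8, Ndufaf7, Uqcrfs1, Cox4i1, Cox5a and Cox17, were all among the 15 that were lower at 28 than at 5 dpl; both comparisons use the same 5 dpl arrays. Between 28 and 5 dpl all 3 arrays lay above all 3 of the earlier group for 8 members and below for 15, 31.9% of members against 53.8% of all probes. For 14 against 5 dpl this held for 30.6% of members and 38.1% of all probes, and for 28 against 14 dpl for 23.6% and 38.8%. Leaving out single arrays kept 14 to 20 of the 21 calls between 28 and 5 dpl, the fewest without 28 dpl replicate 1 or 3. With 28 dpl replicate 3 left out 3 members rose in place of 6, and without 5 dpl replicate 2 the F test called 11 in place of 18.

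Genes that serve the chain from outside the rule were described from lists of known mitochondrial genes, in the same fit between 28 and 5 dpl. Over all probes 20.2% rose and 24.1% fell in that comparison, and whether any list differs from these shares was not tested. Of 14 further assembly factors 3 rose and 5 fell. Timmdc1, a complex I factor, rose by 0.38 (adjusted p = 0.00431), Nubpl, which delivers its iron-sulfur clusters, rose by 0.26 (adjusted p = 0.00977), and Bcs1l, which inserts the Rieske protein into complex III, fell by 0.27 (adjusted p = 0.00975). Of 9 carriers and channels 0 rose and 3 fell: Ucp2, an uncoupling protein homologue, by 1.24 (adjusted p = 0.00237), Ppif, the cyclophilin of the permeability transition, by 0.59 (adjusted p = 0.00134) and Slc25a5, an ADP/ATP carrier, by 0.40 (adjusted p = 0.00336). In 20 genes of the TCA cycle and pyruvate oxidation 2 rose and 9 fell. Pc, pyruvate carboxylase, rose by 0.78 (adjusted p = 0.000167), Idh2, the NADP-linked isocitrate dehydrogenase, fell by 0.94 (adjusted p = 0.00101) and Pdhx, a pyruvate dehydrogenase component, fell by 0.48 (adjusted p = 0.0103). These adjusted p-values are limma's.

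Among 55 mitochondrial ribosomal proteins, which make the subunits encoded in mitochondria, 4 rose and 18 fell. This count and those of the following lists stand beside 20.2% of all probes higher and 24.1% lower. Mrpl17, Mrps17 and Mrpl13, taken for their small p in the F test and not for size, fell by 0.76, 0.56 and 0.43. Of 28 genes of protein import and quality control 3 rose and 7 fell, among them Tomm20, Phb2 and Tomm70, which fell by 0.34, 0.52 and 0.56. Mitochondrial biogenesis genes were split, with 3 of 14 higher and 3 lower: Sirt3, a mitochondrial deacetylase, rose by 0.76 and Polrmt, the mitochondrial RNA polymerase, by 0.30, while Ssbp1, which binds single-stranded mitochondrial DNA, fell by 0.40. Of 8 fusion and fission genes 3 rose and 4 fell. Fis1 and Mfn2, known for fission and fusion, rose by 0.57 and 0.46, and Yme1l1, an inner membrane protease, fell by 0.72. Fatty acid oxidation had 3 of 17 higher and 6 lower, with Acaa2, Cpt1a and Acadl falling by 1.23, 0.82 and 0.81. Of 15 glycolytic enzymes 4 rose and 4 fell, among them Pgk1, which fell by 0.70, and Ldhb and Pfkm, which rose by 1.30 and 1.28. The mean level of this list was 0.09, 0.20 and 0.19 at 28 dpl and 0.17, -0.23 and -0.26 at 5 dpl, so 5 dpl replicate 1 lay among the 28 dpl arrays. Without that array 6 of the 15 rose and 4 fell.

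The medians of these 9 lists lay between -0.19 and -0.02, beside -0.03 for all probes, and between -0.21 and 0.02 with arrays left out in turn, an alternative added after the data had been seen; over the same fits the chain's median of -0.07 ranged from -0.13 to -0.03. Those fits moved 3 counts of the lists by more than 1.5 times. Of the further assembly factors 3 fell without 5 dpl replicate 2 and 2 without 28 dpl replicate 1, in place of 5. Of the carriers and channels 2 rose without 5 dpl replicate 1, in place of 0. Of the mitochondrial ribosomal proteins 2 rose, in place of 4, when replicate 3 of 5 dpl or either of replicates 2 and 3 of 28 dpl was left out. Their single genes reached further than any chain member: each list other than the further assembly factors held differences over 0.5 in size, where the chain held 0. Aldoc, which reached 2.54 in the glycolytic list, is also in the astrocyte marker list, and the part of cell makeup in these differences was not tested.

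**Figure D4:**
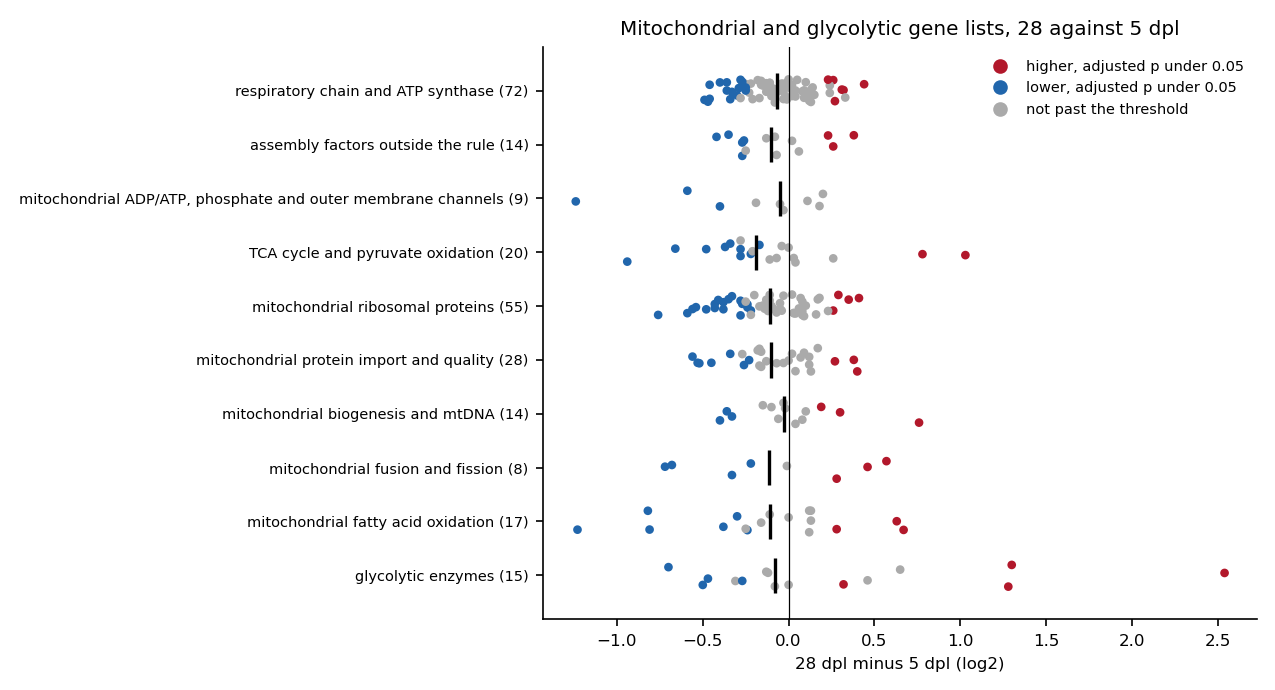
Log2 difference between 28 and 5 dpl for each gene of the chain and of the other metabolic and mitochondrial lists, 1 row per list (number of genes in brackets) and 1 point per gene, black bars at the medians, with red for higher and blue for lower at an adjusted p under 0.05. The chain's points lie within 0.49 of 0, while the glycolytic list reaches 2.54 and the carriers -1.24.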

How the data were processed

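Lesions of 3 time points were measured on 9 Illumina arrays. Biotin-labelled cRNA was made with Ambion's TotalPrep kit, per the labels' protocols. The deposited raw table holds, per the file headers, a detection p-value for each of 22226 targets on each array; its 9 columns of signal were not used. The authors' normalized table holds log2 values of 10552 probes; the sorted values are the same on every array to within 0.0017, as quantile normalization gives. Nothing in the sources used here states its background step or filter. The tables share 0 identifiers and raw columns name the day but not the replicate, so the raw table served only for detection: 38.09% to 41.35% of targets per array had a detection p-value under 0.01. From these counts the background on the normalized scale was estimated at 7.25 to 7.31, taking the 10552 targets detected on at least 1 array to be the normalized table's probes, which could not be checked. The highest value was used.

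The platform annotation names 7679 probes; where a gene has several, the brightest was kept. A mean per time point was fitted in limma 3.58.1 under R 4.3.3 (lmFit, eBayes, Benjamini-Hochberg over all probes, threshold 0.05), and the script was tested on simulated data. Across time points, same-numbered replicates had correlations of -0.29 to 0.15 and differently numbered ones of -0.23 to 0.32. With 3 arrays at each time point, these values cannot decide whether the numbers pair samples. No label ties the numbers, so the main fit did not use them. The members and lists were chosen with earlier results of these data known, and are no independent support. Named genes are, per complex, the 3 with the smallest and the 1 with the largest p of the F test, the extremes past the threshold in each comparison, tissue isoforms, the Sdh genes and Cycs, and per list up to 3 genes; other members past the threshold or differing between alternatives were named after their values were seen. The mean of at least 10 for bright probes and the background estimate were also set with the data seen. Alternatives were arrays left out in turn, cyclic loess, an intensity trend, array weights, filters on dim probes, the mean of a gene's probes, a replicate block and fits of the compared time points alone. The number of arrays limits the precision.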

Additional observations from a re-analysis of the deposited data

How the results depend on the processing

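The counts of members between 28 and 5 dpl stayed within 1.5 times of 6 higher and 15 lower under every alternative other than leaving out 28 dpl replicate 3; leaving out arrays in turn gave 3 to 6 higher and 12 to 19 lower. Between 14 and 5 dpl that range was 0 to 1 higher and 3 to 7 lower, between 28 and 14 dpl 0 higher and 0 to 2 lower, and for the F test 11 to 17 members. At 14 against 5 dpl cyclic loess gave 1 higher, array weights 2 higher and 10 lower, and the replicate block 1 higher and 4 lower. At 28 against 14 dpl cyclic loess gave 0 lower, array weights 1 higher and 2 lower, and the compared time points alone 2 lower. For 14 dpl against the mean of 5 and 28 dpl array weights gave 1 higher and 1 lower. The replicate block, which treats equal numbers as paired though no label ties them, gave 5 higher and 14 lower at 28 against 5 dpl. Of the calls, 3 of 6 (Ndufa8, Uqcrfs1 and Cox17) at 14 against 5 dpl, 0 of 1 at 28 against 14 dpl and 13 of 21 at 28 against 5 dpl held under every alternative run, and 0 changed sign. The cause of the moves was not tested; fits with an array left out hold fewer samples. Over the 34 members taken by the rule for named genes, 1731 recomputed values kept direction and side of the threshold in 1598, lost the threshold in 62 and gained it in 20. Over all 72 members, and without the fits on the compared time points alone, 37 pairwise calls were gained, in 18 members.

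The other 51 changed sign, in 16 members, with 0 past the threshold before or after and a size of at most 0.21. With array weights the values were 0.0287 for Atp5mk at 14 against 5 dpl; -0.00733 for Ndufa8, -0.00869 for Ndufaf6, 0.019 for Ndufaf7 and -0.00871 for Cox6a1 at 28 against 14 dpl; 0.0163 for Uqcrh and 0.0283 for Atp5mk at 28 against 5 dpl. With cyclic loess they were 0.00877 for Ndufaf7, 0.00477 for Sdha, 0.0396 for Cox4i1, 0.0291 for Cox5a and 0.0165 for Atp5mk at 28 against 14 dpl; 0.0204 for Ndufb8, 0.0278 for Uqcrh and 0.0162 for Atp5mk at 28 against 5 dpl. With arrays left out in turn the ranges at 14 against 5 dpl were -0.13 to 0.24 for Ndufb8, -0.0802 to 0.11 for Sdhaf3, -0.00563 to 0.0839 for Uqcrc1, -0.17 to 0.17 for Cox7b and -0.22 to 0.21 for Atp5mk. At 28 against 14 dpl they were -0.0135 to 0.0569 for Ndufa8, -0.16 to 0.0194 for Ndufab1, -0.096 to 0.0642 for Ndufb8, -0.0621 to 0.12 for Ndufaf6, -0.0415 to 0.0419 for Ndufaf7, -0.11 to 0.0142 for Sdha, -0.0549 to 0.00942 for Cox4i1, -0.14 to 0.0894 for Cox5a, -0.0108 to 0.0345 for Cox6a1, -0.17 to 0.00975 for Cox7a2l and -0.12 to 0.0566 for Atp5mk. At 28 against 5 dpl they were -0.16 to 0.21 for Ndufb8, -0.0464 to 0.0231 for Uqcrh, -0.23 to 0.052 for Cox6a2 and -0.24 to 0.19 for Atp5mk.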
